A study of Oryza sativa Indica Group with 24 samples.

Results

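The 150 genes described here had abundant transcripts in the rice grain and their highest level at 7 days post-anthesis (DPA), the earliest stage sampled. Genes that were abundant but highest later are not among them, and some of those stood above every member at 7 DPA. They were chosen from 26362 genes by their own values in FPKM (fragments counted per unit of transcript length and of library size). The mean of the 3 libraries was taken in each of the 8 groups of cultivar and DPA. A gene qualified when its largest group mean was at least 500 FPKM and when the average of the RD57 and RD6 means was highest at 7 DPA. There were 152 such genes, of which the 150 with the largest group mean were kept. The last members inside the limit were XLOC_039747 with 504 FPKM and XLOC_005748 with 504 FPKM, the 2 genes dropped by the limit had 503 and 502 FPKM, and the next genes highest at 7 DPA had 498 and 483 FPKM.

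RNA was sequenced from developing grains, labelled as endosperm, of 2 Thai indica rice cultivars, the waxy (glutinous) RD6 and the high-amylose RD57. Plants were grown in pots in a net house under natural light, and grains were collected at 7, 14, 21 and 28 DPA. Each of the 8 groups held 3 biological replicates, giving 24 libraries. The cultivars are unmodified varieties with different genetic backgrounds, each cultivar was represented by a single variety, and no treatment was applied.

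Rice grain filling begins soon after the endosperm has formed cell walls. In its early phase cells still divide and expand, sucrose arriving from the mother plant is cleaved for starch synthesis, and the outer grain layers are green and photosynthetic. Storage protein and starch then build up, and the grain finally dries and matures. The deposited table lists genes by assembly identifiers (XLOC) and does not pair these with gene names, so the endosperm label could not be checked against marker genes. Names were available for 7 members only, from labels the study printed beside identifiers. These were read by eye from an image, where a wrongly read character points to a different gene. Of 49 labels read, 45 were in the table, and 7 of these 45 (15.6%) were members, against 0.569% of all genes. The study drew those labels from genes that differed between the cultivars and were active early in these same samples, so the temporal pattern and the cultivar differences of named members are not independent of that choice.

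The summed FPKM of all genes ranged from 595147 to 1748780 per library and was highest at 14 DPA within each cultivar. Read depth cannot be derived from FPKM and is unknown here. Some libraries stood apart from their group. In RD6 at 28 DPA, replicate 3 held over 5 times the FPKM of both other replicates for 15 of the 133 members above 0 in all 3, and for 216 of 17548 genes (1.23%). In RD6 at 7 DPA, replicate 2 did so for 5 of 150 members and for 32 of 21227 genes (0.151%). In every other library at most 1 member did so. Of the 150 members, 130 were above 0 in all 24 libraries, 20 were listed at 0 throughout 1 or more groups, and 17 had a group in which a replicate equalled the mean of the others, as the authors' filling of missing values gives.

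At 7 DPA the 150 members made up a large part of the grain transcriptome. Their share of the summed FPKM was 21.5%, 14.1% and 15.4% in the 3 RD57 libraries and 20.1%, 23.2% and 22.3% in the 3 RD6 libraries. At 14 DPA it ranged from 5.78% to 9.39% over the 6 libraries, at 21 DPA from 4.67% to 8.74%, and at 28 DPA from 3.90% to 7.51%. The members were chosen for this order, so it is given without a test. Of the 150, 55 had a largest group mean of at least 1000 FPKM, 6 of at least 5000 and 3 of at least 10000, and the median was 826 FPKM. The largest mean was in RD6 at 7 DPA for 100 members and in RD57 at 7 DPA for 48. The other 2, named after their values were seen, were XLOC_040314, with its largest mean in RD57 at 14 DPA, and XLOC_001607, with its largest in RD6 at 28 DPA.

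**Figure D1:**
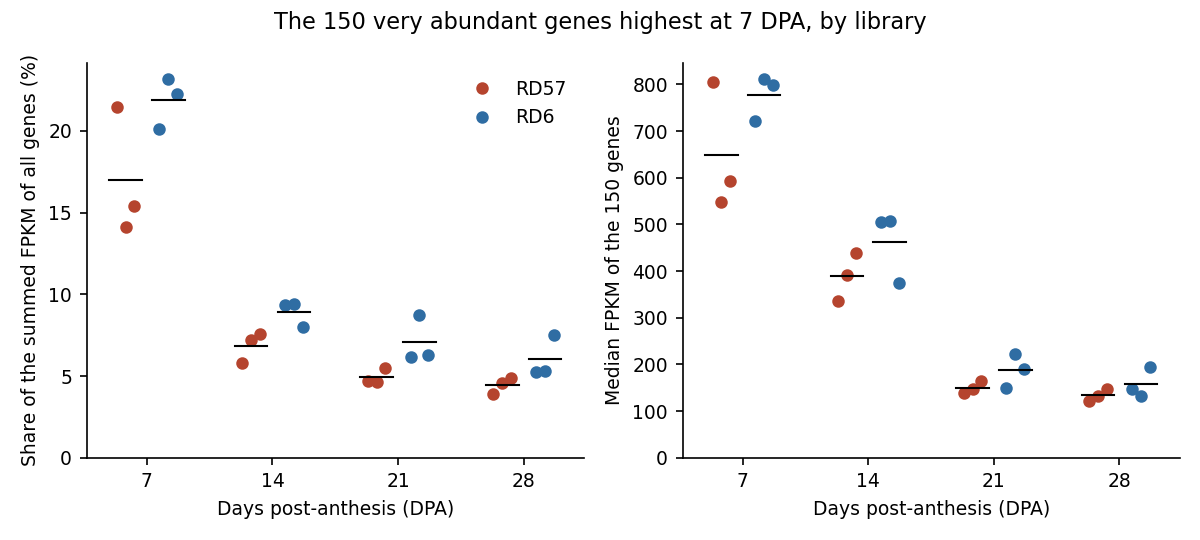
Share of the 150 genes in the summed FPKM of all genes (left, percent) and their median FPKM (right) in each library by DPA, with black bars for the mean of 3 libraries. The 6 libraries of 7 DPA lie between 14.1% and 23.2%, above all 18 later libraries, which lie at or under 9.39%.

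The most abundant member, XLOC_009355, was high through 21 DPA and then almost gone in all but a single library. In RD57 the 7 DPA libraries held 17164, 14958 and 18537 FPKM and those of 14 DPA 13622, 15498 and 14940 FPKM. The later RD57 libraries held 8854, 5346 and 11829 FPKM (21 DPA) and 30.0, 31.5 and 25.3 FPKM (28 DPA). In RD6 the 7 DPA libraries held 17638, 12277 and 12024 FPKM and those of 14 DPA 12537, 9868 and 8765 FPKM. The later RD6 libraries held 10902, 24616 and 9335 FPKM (21 DPA) and 52.7, 99.1 and 9135 FPKM (28 DPA). The cultivars overlapped at 7 and 21 DPA, whereas at 14 and 28 DPA they did not, RD57 being higher at 14 DPA and lower at 28 DPA, where RD6 replicate 3 stood far above the other libraries.

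XLOC_039522 was the second most abundant and, at 7 DPA, the most unequal between cultivars among the 3 members over 10000 FPKM. At 7 DPA it measured 12940, 15007 and 21239 FPKM in RD57 and 5378, 7636 and 5344 FPKM in RD6, so that every RD57 library was above every RD6 library. At 28 DPA it measured 18.3, 17.6 and 28.5 FPKM in RD57 and 38.9, 30.8 and 2078 FPKM in RD6. Its RD57 over RD6 difference at 7 DPA, 1.41 on the log2(FPKM + 0.5) scale with a standard error (SE) of 1.02, did not pass (adjusted p = 0.384 in limma). The model pools the spread of a gene over all 8 groups.

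After 7 DPA the members went different ways. The median member was at 59.2% of its 7 DPA mean at 14 DPA in RD57 and at 62.4% in RD6. At 21 DPA these medians were 24% and 25%, and at 28 DPA 24.9% and 19.5%. The spread around them was wide. At 28 DPA the quartiles were 3.06% and 42.8% in RD57 and 5.67% and 35.2% in RD6. RD6 28 DPA replicate 3, which stood apart for 15 members, raised their RD6 means. For XLOC_010061 the RD6 28 DPA mean was 69.3 FPKM, against 0.93 FPKM over the other 2 replicates. The RD6 lower quartile and the counts under 1% at 28 DPA depend on that library.

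At the low end, 19 members were under 1% of their 7 DPA mean at 28 DPA in both cultivars, and 13 of the 150 were listed at 0 at 28 DPA in both. The count of 19 rests on RD6 means that include replicate 3. At the high end, 16 members kept at least 50% of the 7 DPA mean at 28 DPA in both cultivars, and 91 kept at least 10%. XLOC_042360, singled out after its values were seen, was among the 16. It measured 3059, 2870 and 3005 FPKM at 7 DPA and 2673, 1569 and 1686 FPKM at 28 DPA in RD57. In RD6 it measured 3149, 3597 and 3023 FPKM at 7 DPA and 2082, 1811 and 1656 FPKM at 28 DPA. Each cultivar alone also placed most members at 7 DPA, where 136 of 150 had their highest mean in RD57 and 137 in RD6. For 12 members in RD57 and 11 in RD6 the highest mean was at 14 DPA.

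**Figure D2:**
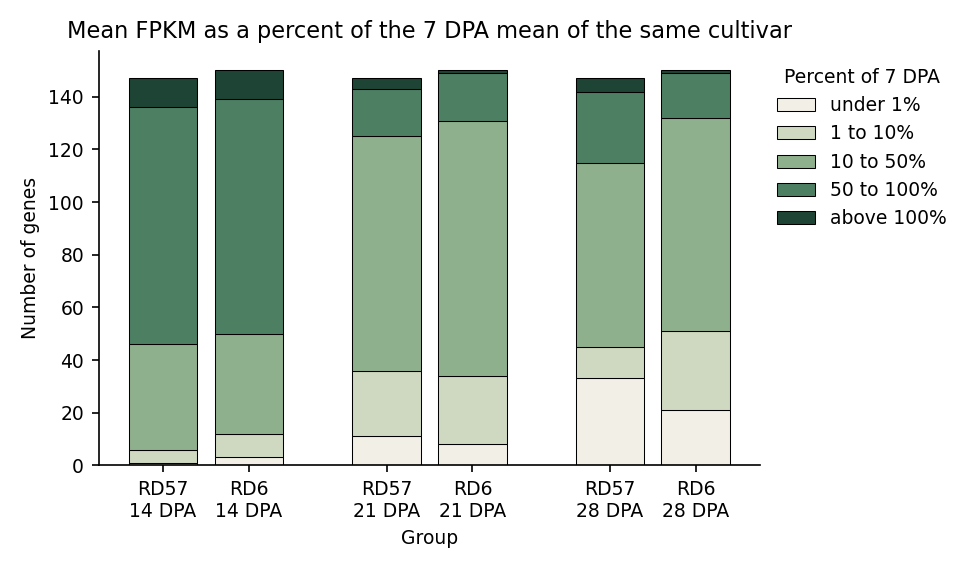
Number of genes (vertical axis) by their mean FPKM as a percent of the 7 DPA mean of the same cultivar, for each cultivar at 14, 21 and 28 DPA. Genes under 1% numbered 1 in RD57 and 3 in RD6 at 14 DPA and 33 and 21 at 28 DPA, and 3 genes listed at 0 in RD57 at 7 DPA are left out of the RD57 bars. Replicate 3 of RD6 at 28 DPA raised the RD6 mean of 15 genes, which lowers the RD6 count under 1% at that stage.

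The step from 14 to 21 DPA, which the choice of members did not use directly, was a fall for most members in both cultivars. In RD57 109 of 150 members fell and 1 rose, with an adjusted p of at most 0.05 in limma over all genes. Of all 26362 genes 35.3% fell and 27.7% rose by the same rule, 63.1% together. In RD6 102 members fell and 4 rose, against 31.3% and 25.4% of all genes (56.8% together). The median member changed by -1.28 on the log2 scale in RD57 and by -1.30 in RD6, and the median of all genes was 0 in each. The same 88 members fell in both cultivars. At an absolute Log2FC of at least 2, the threshold the study used for differentially expressed genes (DEGs), 47 members fell in RD57 (11.9% of all genes) and 39 in RD6 (5.72%), where 41 changed in either direction (9.51%). Since members were required to be highest at 7 DPA, their 14 and 21 DPA levels were both capped, and a rise between these stages was limited by that cap.

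XLOC_012981 was the single member that rose in both cultivars at this step, from a dip at 14 DPA. In RD57 the 7 DPA libraries held 3184, 2043 and 2423 FPKM and those of 14 DPA 862, 741 and 1185 FPKM. The later RD57 libraries held 2124, 1533 and 1572 FPKM (21 DPA) and 2415, 1659 and 1843 FPKM (28 DPA). In RD6 the 7 DPA libraries held 3712, 4953 and 4087 FPKM and those of 14 DPA 1108, 1257 and 1165 FPKM. The later RD6 libraries held 2932, 2019 and 2431 FPKM (21 DPA) and 3117, 3176 and 1722 FPKM (28 DPA). In both cultivars all 21 DPA libraries lay above all 14 DPA libraries. The rise was 0.92 on the log2 scale in RD57 (SE 0.30, adjusted p = 0.0123) and 1.05 in RD6 (SE 0.30, adjusted p = 0.00592). In RD57 the call was lost without 21 DPA replicate 1 (adjusted p = 0.0632) or without 14 DPA replicate 2 (adjusted p = 0.0652).

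Among falls shared by both cultivars, that of XLOC_017206 was the steepest of this step, to nothing listed. At 14 DPA it measured 135, 114 and 156 FPKM in RD57 and 329, 1510 and 498 FPKM in RD6, and it was listed at 0 in all 12 libraries of 21 and 28 DPA. No fold is given against a group listed at 0. The fall passed in both cultivars (adjusted p = 1.28e-11 in RD57 and 2.80e-13 in RD6), but a group at 0 has no spread and RD57 14 DPA replicate 1 equalled the mean of the other 2, as a filled value does, and both lower such p-values.

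From 21 to 28 DPA fewer members changed. In RD57 27 of 150 fell and 2 rose, against 11.3% and 4.89% of all genes. In RD6 47 fell and 6 rose, against 22.9% and 9.19%. All 27 members that fell in RD57 also fell in RD6, and 20 more fell in RD6 alone. The median member changed by -0.01 in RD57 and by -0.27 in RD6. At an absolute Log2FC of at least 2, 25 members fell in RD57 (3.53% of all genes) and 31 in RD6 (8.43%), where 32 changed in either direction (8.7%). Quantile normalization gave 27 falls and 6 rises in RD57. Of the members that changed, 7 of 29 in RD57 and 15 of 53 in RD6 were listed at 0 throughout 21 or 28 DPA. Without RD6 28 DPA replicate 3, 49 members fell in RD6 and 6 rose. A fit to the 6 libraries of the 2 RD6 groups alone gave 18 falls and 3 rises, and quantile normalization 45 falls and 22 rises.

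Among falls shared by both cultivars, that of XLOC_013372 was the steepest of this step. Its 7 DPA values were 1510, 1211 and 1309 FPKM in RD57 and 1623, 1848 and 1766 FPKM in RD6. At 21 DPA it measured 46.6, 24.4 and 74.5 FPKM in RD57 and 78.7, 203 and 318 FPKM in RD6, and at 28 DPA it was listed at 0 in all 6 libraries (adjusted p = 3.18e-11 in RD57 and 2.44e-13 in RD6). The 21 DPA values of the cultivars did not overlap, RD6 being higher.

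The largest rise between 21 and 28 DPA in both cultivars was that of XLOC_013327, at a low level. It was listed at 0 in all 6 libraries of 21 DPA and measured 4.87, 4.60 and 4.73 FPKM in RD57 and 3.40, 1.98 and 0.561 FPKM in RD6 at 28 DPA (adjusted p = 1.10e-08 and 4.16e-06). Its membership rested on RD6 at 7 DPA, with 820, 999 and 909 FPKM, of which 1 value was filled, while RD57 was listed at 0. Each 28 DPA group also held a filled value (RD57 replicate 3 and RD6 replicate 2). In RD57 it reached 9.48, 10.6 and 11.8 FPKM at 14 DPA, where replicate 2 was a filled value and RD6 was listed at 0.

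The cultivars were close for most members at 7 DPA. The RD57 and RD6 means were within 2-fold of each other for 124 of 150 members, the RD6 mean was more than 2-fold higher for 17 and the RD57 mean for 9. By adjusted p, 6 members were higher in RD57 and 17 higher in RD6, against 13.8% of all genes in each direction. With quantile normalization the counts were 6 and 32. At an absolute Log2FC of at least 2, 1 was higher in RD57 (3.88% of all genes) and 8 in RD6 (3.35%), 9 together (7.24%). The minimum of 500 FPKM bears on these counts, since it asks for 1 high group only, and the counts are a description. Of the members, 104 reached 500 FPKM at 7 DPA in both cultivars, 36 in RD6 only and 10 in RD57 only. Among the 104, 4 were higher in RD57 and 6 in RD6, and 11 of the 17 RD6-higher members were among the 36. The median Log2FC of the members was -0.23. In the 305 other genes with a group mean of at least 500 FPKM, 38 were higher in RD57 and 12 in RD6 with a median of 0.33, and the difference between these genes and the members was not tested. Without RD57 7 DPA replicate 1 the members counted 4 higher in RD57 and 33 higher in RD6, so the number of RD6-higher members rested on that library.

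XLOC_028719 was the member with the largest RD57 excess at 7 DPA. It measured 1365, 505 and 689 FPKM in RD57 and 110, 38.8 and 44.1 FPKM in RD6, with every RD57 library above every RD6 library (Log2FC 3.76, SE 0.48). It became a member through RD57 alone, so this difference is given without a test. Its 14 DPA values were 13.4, 20.1 and 12 FPKM in RD57 and 2.47, 2.78 and 2.15 FPKM in RD6 (Log2FC 2.37, SE 0.48, adjusted p = 0.000506). The RD6 14 DPA value of replicate 1 was a filled one. At 21 and 28 DPA it was between 0.957 and 4.96 FPKM in RD57 and listed at 0 in RD6. The gene was thus far higher at 7 DPA than later in both cultivars, and higher in RD57 at each DPA.

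XLOC_021363 was also higher in RD57 at 7 DPA, and in both cultivars its mean was lower at each later stage than at 7 DPA. At 7 DPA it measured 2291, 1515 and 2551 FPKM in RD57 and 465, 694 and 580 FPKM in RD6 (Log2FC 1.85, SE 0.46, adjusted p = 0.0035). RD6 replicate 3 was a filled value, which lowers this p-value. At 14 DPA it measured 339, 360 and 592 FPKM in RD57 and 159, 163 and 196 FPKM in RD6. At 21 DPA it measured 18.0, 4.10 and 23.9 FPKM in RD57 and 9.87, 9.50 and 10.2 FPKM in RD6. By 28 DPA it measured 0.874, 1.87 and 4.04 FPKM in RD57 and was listed at 0 in RD6. The cultivars did not overlap at 7 and 14 DPA, and they overlapped at 21 DPA.

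In the other direction, XLOC_008803 was more than 3 log2 units higher in RD6 at both early stages. Its 7 DPA values were 140, 65.2 and 104 FPKM in RD57 and 1482, 1530 and 1310 FPKM in RD6 (Log2FC -3.86, SE 0.41). It became a member through RD6 alone, so the 7 DPA difference has no test here. At 14 DPA it measured 49.8, 36.6 and 33.3 FPKM in RD57 and 1054, 896 and 596 FPKM in RD6 (Log2FC -4.38, SE 0.41, adjusted p = 2.20e-08). At 21 DPA RD6 still held 16.6, 52.8 and 99.3 FPKM while RD57 was listed at 0, and at 28 DPA both were.

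XLOC_014449 had opposite orders of the cultivars at 7 and 14 DPA. At 7 DPA it measured 18.0, 21.2 and 26.6 FPKM in RD57 and 663, 626 and 258 FPKM in RD6 (Log2FC -4.42, SE 0.78). It became a member through RD6 at 7 DPA alone, so that difference and the change of order are a description. Its 14 DPA values were 36.3, 695 and 204 FPKM in RD57 and 23.0, 16.0 and 11.6 FPKM in RD6 (Log2FC 3.37, SE 0.78, adjusted p = 0.0019). The cultivars did not overlap at either stage, RD6 being higher at 7 DPA and RD57 at 14 DPA. The 14 DPA call was lost in a fit to the 6 libraries of 14 DPA alone (adjusted p = 0.0934).

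At 14 DPA 9 members were higher in RD57 (15.1% of all genes) and 15 higher in RD6 (13%). The balance rested on single libraries, as the counts were 16 and 11 without RD57 replicate 1, 11 and 8 without RD6 replicate 1, and 8 and 8 without RD6 replicate 2. At an absolute Log2FC of at least 2, 7 passed (7.14%). The median Log2FC of the members was -0.22. Of the members that passed at both 7 and 14 DPA, 9 kept their direction and 3 reversed it. The 3 were XLOC_014449 and XLOC_013327, described above and members through RD6 at 7 DPA alone, and XLOC_003803, which reached 500 FPKM in both cultivars. For XLOC_013327 the 14 DPA call was against RD6 listed at 0, with a filled value in RD57 replicate 2. XLOC_003803 measured 746, 677 and 738 FPKM in RD57 and 1423, 1347 and 1244 FPKM in RD6 at 7 DPA (Log2FC -0.89, SE 0.21). At 14 DPA it measured 922, 1332 and 1504 FPKM in RD57 and 830, 617 and 495 FPKM in RD6 (Log2FC 0.95, SE 0.21, adjusted p = 0.00155). Its RD57 mean was higher at 14 DPA (1253 FPKM) than at 7 DPA (720 FPKM), so it was highest at 7 DPA only through RD6. The 7 DPA difference is thus given without a test, and the change of order is a description. These 3 members and XLOC_029435 were the 4 of 150 that were higher in RD57 at 1 stage and in RD6 at another.

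At 21 DPA few members were higher in RD57, while the share higher in RD6 was near that of all genes. There 2 members (1.33%) were higher in RD57, against 13.6% of all genes, and 21 (14.0%) higher in RD6, against 15.5%. Past an absolute Log2FC of 2 the counts were 1 (2.77% of all genes) and 12 (4.13%), 13 together (6.9%). Members reached 500 FPKM at 7 DPA in RD6 only for 36 and in RD57 only for 10. How this bears on the 21 DPA counts was not tested. The median Log2FC of the members was -0.26. Of the 23 members called, 7 were listed at 0 throughout in a cultivar.

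XLOC_041676 and XLOC_035184 showed the largest differences at 21 DPA among members measured above 0 in all 6 libraries. XLOC_041676 measured 3.14, 1.33 and 1.67 FPKM in RD57 and 12.5, 26.6 and 61.5 FPKM in RD6 (Log2FC -3.52, SE 0.44, adjusted p = 1.73e-06). XLOC_035184 measured 3.33, 2.65 and 7.09 FPKM in RD57 and 33.2, 87.0 and 75 FPKM in RD6 (Log2FC -3.75, SE 0.82, adjusted p = 0.00118). At 7 DPA both were lower in every RD57 library than in any RD6 library. The values were 165, 103 and 110 against 468, 515 and 572 FPKM for XLOC_041676. For XLOC_035184 they were 366, 344 and 384 against 983, 720 and 843 FPKM. Both became members through RD6 alone, so this 7 DPA order is a description.

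The largest RD57 excess at 21 DPA by the same criteria was small. XLOC_021496 measured 262, 311 and 294 FPKM in RD57 and 156, 229 and 194 FPKM in RD6 (Log2FC 0.60, SE 0.21, adjusted p = 0.0375), without overlap. The call was lost without any 1 of 4 of the 6 libraries (RD57 replicate 2 or 3, RD6 replicate 1 or 3; highest adjusted p = 0.161) and with median-ratio scaling (adjusted p = 0.0515).

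At 28 DPA 6 members were higher in RD57 (11.0% of all genes) and 10 higher in RD6 (4.09%). Of the 16 members called, 3 were listed at 0 throughout in a cultivar and 3 others had a filled value. When only genes above 0 in all 24 libraries were tested, 2 were higher in RD57 and 10 in RD6. At an absolute Log2FC of at least 2, 8 passed (3.07%). The median Log2FC of the members was -0.02. With quantile normalization 6 were higher in RD57 and 16 in RD6. Of the members higher in RD6 without overlap, XLOC_009355 and XLOC_030350 had the largest differences. For both, RD6 replicate 3 held over 5 times the FPKM of the other replicates. That was not so for XLOC_032631, described below, whose call was kept without any 1 library (Log2FC -2.83, highest adjusted p = 0.0137). XLOC_009355, with the values given above, had a Log2FC of -3.64 (SE 1.15, adjusted p = 0.0373), and without RD6 replicate 3 it was -1.31 (adjusted p = 0.0472). The call was lost without RD57 replicate 1, 2 or 3 (highest adjusted p = 0.104). Without RD6 replicate 3, 9 members were higher in RD6 and 10 in RD57. Without RD57 28 DPA replicate 1 the counts were 6 higher in RD57 and 4 in RD6, without RD57 28 DPA replicate 3 they were 6 and 5, and in a fit to the 6 libraries of 28 DPA alone 4 and 3.

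In the other direction at 28 DPA, XLOC_029435 measured 1296, 888 and 1240 FPKM in RD57 and 658, 462 and 727 FPKM in RD6 (Log2FC 0.90, SE 0.23, adjusted p = 0.00945). At 7 DPA it had been higher in RD6, with 1325, 1070 and 1510 FPKM in RD57 and 3086, 3440 and 2928 FPKM in RD6 (Log2FC -1.29, SE 0.23). The cultivars overlapped at neither 7 nor 28 DPA. Its RD57 mean was higher at 14 DPA (2312 FPKM) than at 7 DPA (1302 FPKM), so it was highest at 7 DPA only through RD6. It no longer qualified as a member without RD6 7 DPA replicate 2. The 7 DPA difference is thus given without a test. The 28 DPA call was lost without RD57 replicate 1 (adjusted p = 0.0527) or RD6 replicate 2 (adjusted p = 0.0748). XLOC_013327, at the low levels given above, had a Log2FC of 1.27 at 28 DPA (SE 0.28, adjusted p = 0.00285) with a filled value in each cultivar.

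Over the 4 stages 95 of 150 members passed at none, 35 at a single stage and 2 at all 4. The 2 were XLOC_028719, higher in RD57, and XLOC_039161, higher in RD6. For XLOC_028719 the 7 DPA call is not independent of its membership through RD57 alone. Its 21 and 28 DPA calls were against RD6 listed at 0. For this gene RD57 21 DPA replicate 2 and RD6 14 DPA replicate 1 were filled values. XLOC_039161 measured 957, 547 and 480 FPKM in RD57 and 1133, 1347 and 1371 FPKM in RD6 at 7 DPA, and 71.7, 96.0 and 104 against 250, 338 and 386 FPKM at 21 DPA. Its Log2FC was -1.02 at 7 DPA (SE 0.29, adjusted p = 0.0101) and -1.83 at 21 DPA (SE 0.29, adjusted p = 3.21e-05), with no overlap at either.

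**Figure D3:**
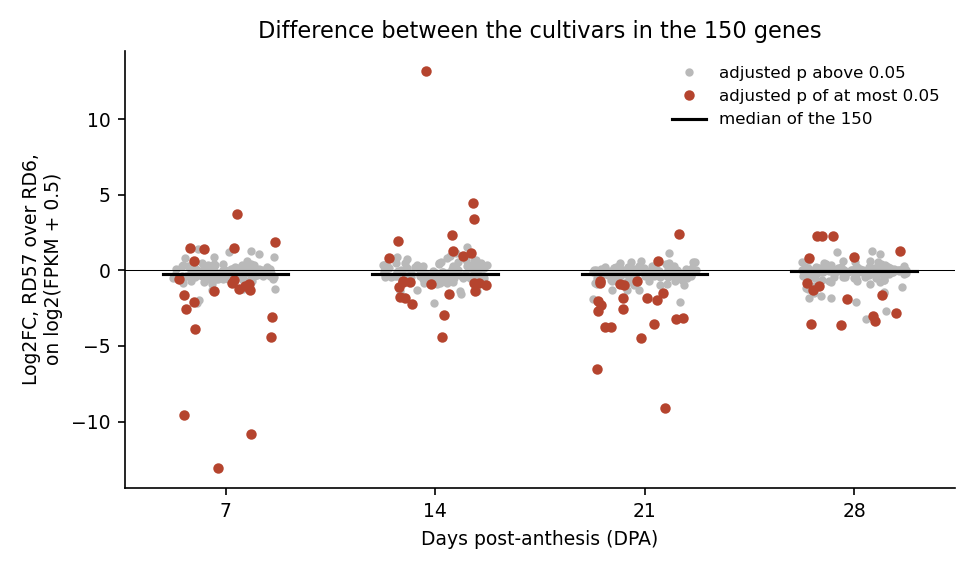
Log2FC of RD57 over RD6 on the log2(FPKM + 0.5) scale (vertical axis) for each of the 150 genes at each DPA, in red where the adjusted p was at most 0.05, with a bar at the median. The medians are -0.23, -0.22, -0.26 and -0.02, and points beyond about 5 in size belong to genes listed at 0 in a cultivar, whose value depends on the constant added to FPKM.

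Whether the change between consecutive stages differed between cultivars was tested as a difference of Log2FC. From 7 to 14 DPA 14 members changed more upward in RD57 (12.2% of all genes) and 3 more upward in RD6 (10.2%, 0 to 5 members without 1 library). This step holds the 7 DPA level by which members were chosen, in RD6 alone for 36 and in RD57 alone for 10, so its counts are a description. From 14 to 21 DPA 4 changed more upward in RD57 (12.2%) and 20 more upward in RD6 (16.1%). Past an absolute difference of 2 there were 9 members (5.26% of all genes) at the first step and 12 (6.71%) at the second. From 21 to 28 DPA 12 changed more upward in RD57 (12.6%) and 0 more upward in RD6 (4.52%). At an unadjusted p under 0.05 in limma these were 18 and 3. All 12 were listed at 0 throughout 1 or more of the 4 groups compared, where a further fall cannot be seen. Of these 12 members, 7 also had a filled value.

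Of the members named for a difference of change, XLOC_040685 and XLOC_039747 were above 0 in all 24 libraries. XLOC_040685 measured 435, 1352 and 457 FPKM at 7 DPA and 105, 404 and 60.7 FPKM at 14 DPA in RD57, and 346, 600 and 202 FPKM and 389, 619 and 393 FPKM in RD6. The RD57 level was thus lower at 14 than at 7 DPA, while the RD6 ranges overlapped (difference -2.62, SE 0.87). It became a member through RD57 at 7 DPA alone, so the difference is given without a test. XLOC_039747 measured 184, 123 and 166 FPKM at 14 DPA and 165, 123 and 147 FPKM at 21 DPA in RD57, and 670, 479 and 286 FPKM and 144, 134 and 125 FPKM in RD6, where alone the stages did not overlap (difference 1.64, SE 0.40, adjusted p = 0.00379).

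In the remaining members named for a difference of change, the largest differences came from groups listed at 0. XLOC_040314 measured 5353, 7917 and 2790 FPKM at 7 DPA and 2127, 12102 and 4248 FPKM at 14 DPA in RD57. In RD6 it measured 1559, 1961 and 1760 FPKM at 7 DPA and was listed at 0 at 14 DPA, and both cultivars were at 0 from 21 DPA on. XLOC_000125 was listed at 0 in all 12 RD57 libraries and measured 5001, 8002 and 1999 FPKM at 7 DPA, 0 at 14 DPA, 221, 331 and 276 FPKM at 21 DPA and 0 at 28 DPA in RD6. In each of these RD6 groups above 0, and in RD57 at 7 DPA for XLOC_040314, 1 replicate equalled the mean of the other 2.

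Of the 7 members with a name, the most abundant was XLOC_030987, labelled Cupin_1, the domain of seed storage globulins, to which the rice glutelins belong. Its 7 DPA values were 10456, 10474 and 12967 FPKM in RD57 and 15543, 13910 and 13105 FPKM in RD6. At 21 DPA it measured 1192, 539 and 2089 FPKM in RD57 and 917, 2043 and 2962 FPKM in RD6, and at 28 DPA 16.7, 15.5 and 7.61 FPKM against 50.7, 30.3 and 712 FPKM. The RD6 libraries were all above those of RD57 at 7 and 28 DPA and overlapped with them at 21 DPA. Only the 28 DPA difference passed (Log2FC -2.99, SE 0.79, adjusted p = 0.0111), and without RD6 replicate 3 it was -1.60 (adjusted p = 0.0399). Without RD57 replicate 3 it did not pass (adjusted p = 0.0613).

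XLOC_028775 was labelled SUS4-like. Sucrose synthase cleaves sucrose into fructose and UDP-glucose and supplies carbon for starch in the filling grain. It measured 955, 569 and 492 FPKM in RD57 and 650, 888 and 808 FPKM in RD6 at 7 DPA, where the cultivars overlapped. Its 14 DPA values were 127, 427 and 454 FPKM in RD57 and 251, 175 and 140 FPKM in RD6, and at 21 DPA 6.69, 14.6 and 42.3 FPKM against 59.3, 185 and 107 FPKM. Of the stages compared between cultivars, 21 DPA alone passed (Log2FC -2.67, SE 0.71, adjusted p = 0.00626), and it did not pass without RD57 replicate 1 (adjusted p = 0.0511). At 28 DPA the difference passed only without RD6 replicate 1 (adjusted p = 0.0301).

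XLOC_032631 was labelled PSBR, a subunit of photosystem II, which is a complex of chloroplasts in green tissue. It measured 519, 390 and 422 FPKM in RD57 and 646, 735 and 660 FPKM in RD6 at 7 DPA. It measured 15.7, 4.27 and 26.4 FPKM in RD57 and 33.3, 65.5 and 104 FPKM in RD6 at 21 DPA, and 0.619, 3.43 and 0.764 FPKM against 6.45, 8.98 and 29.6 FPKM at 28 DPA. Every RD6 library was above every RD57 library at these 3 stages. At 14 DPA the cultivars overlapped, with 303, 347 and 469 FPKM in RD57 and 430, 367 and 281 FPKM in RD6 (Log2FC 0.05). The gene became a member through RD6 at 7 DPA alone, so its 7 DPA difference (Log2FC -0.62, SE 0.59) is given without a test. The difference passed at 21 DPA (Log2FC -2.27, SE 0.59, adjusted p = 0.00513) and 28 DPA (Log2FC -2.83, SE 0.59, adjusted p = 0.0016). Without RD57 21 DPA replicate 2 the 21 DPA difference was just past the limit (adjusted p = 0.0502).

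XLOC_030350 carried the label zf-FLZ, a plant zinc finger domain whose proteins are known in Arabidopsis to bind the energy-sensing kinase SnRK1. It measured 3505, 2677 and 3101 FPKM in RD57 and 5565, 6151 and 5023 FPKM in RD6 at 7 DPA. At 28 DPA it measured 1.12, 0.793 and 1.46 FPKM in RD57 and 2.58, 3.96 and 453 FPKM in RD6. The RD6 libraries were all above those of RD57 at both stages. The 28 DPA difference was -3.52 (SE 1.12, adjusted p = 0.0391), and without RD6 replicate 3 it was -1.21 (adjusted p = 0.0473). The call was lost without RD57 replicate 1, 2 or 3 (highest adjusted p = 0.102), and RD57 replicate 1 was a filled value.

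XLOC_012737 was labelled B12D, a small protein family first described in barley grain. Its ranges at 7 and 14 DPA overlapped in both cultivars, and later levels were far lower. In RD57 it measured 3672, 3925 and 4080 FPKM at 7 DPA, 3006, 3319 and 3956 FPKM at 14 DPA, and 87.9, 80.9 and 209 FPKM at 21 DPA. In RD6 it measured 2793, 2828 and 3004 FPKM, 3005, 2877 and 2729 FPKM, and 84.9, 274 and 346 FPKM at these stages. The RD57 libraries were above those of RD6 at 7 and 14 DPA, and no stage passed (lowest adjusted p = 0.149, at 28 DPA). Without RD6 28 DPA replicate 2 the 28 DPA difference passed (adjusted p = 0.0273).

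XLOC_017375, labelled MLP423 after the major latex protein family, was a member whose level collapsed within a week. At 7 DPA it measured 5269, 1842 and 2420 FPKM in RD57 and 3101, 4662 and 3476 FPKM in RD6. At 14 DPA it measured 7.38, 61.3 and 95.7 FPKM in RD57 and 499, 251 and 177 FPKM in RD6, and at 21 DPA RD57 was listed at 0 while RD6 measured 1.29, 41.1 and 19.0 FPKM. The cultivars overlapped at 7 DPA and not at 14 DPA (Log2FC -2.96, SE 0.96, adjusted p = 0.0247). The 14 DPA call was lost without any 1 of 3 of the 6 libraries (RD57 replicate 1, RD6 replicate 1 or 2; highest adjusted p = 0.158). The 21 DPA difference also passed (Log2FC -4.50, SE 0.96, adjusted p = 0.00093) and was kept without any 1 library. It was against RD57 listed at 0, so its size depends on the constant added to FPKM, and a group without spread lowers its p-value.

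XLOC_026838 carried the label Acid_phosphat_B, a family of plant acid phosphatases. It measured 564, 555 and 567 FPKM in RD57 and 284, 287 and 240 FPKM in RD6 at 7 DPA, and 9.26, 9.38 and 25.6 FPKM against 21.5, 91.5 and 85.8 FPKM at 21 DPA. RD57 was higher without overlap at 7 DPA, and at 21 DPA the ranges overlapped. It became a member through RD57 alone, and its 7 DPA difference (Log2FC 1.06, SE 0.67) is given without a test. The 21 DPA difference was -2.04 (SE 0.67, adjusted p = 0.025), and it was lost without any 1 of 4 of the 6 libraries (RD57 replicate 1 or 2, RD6 replicate 2 or 3; highest adjusted p = 0.118).

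**Figure D4:**
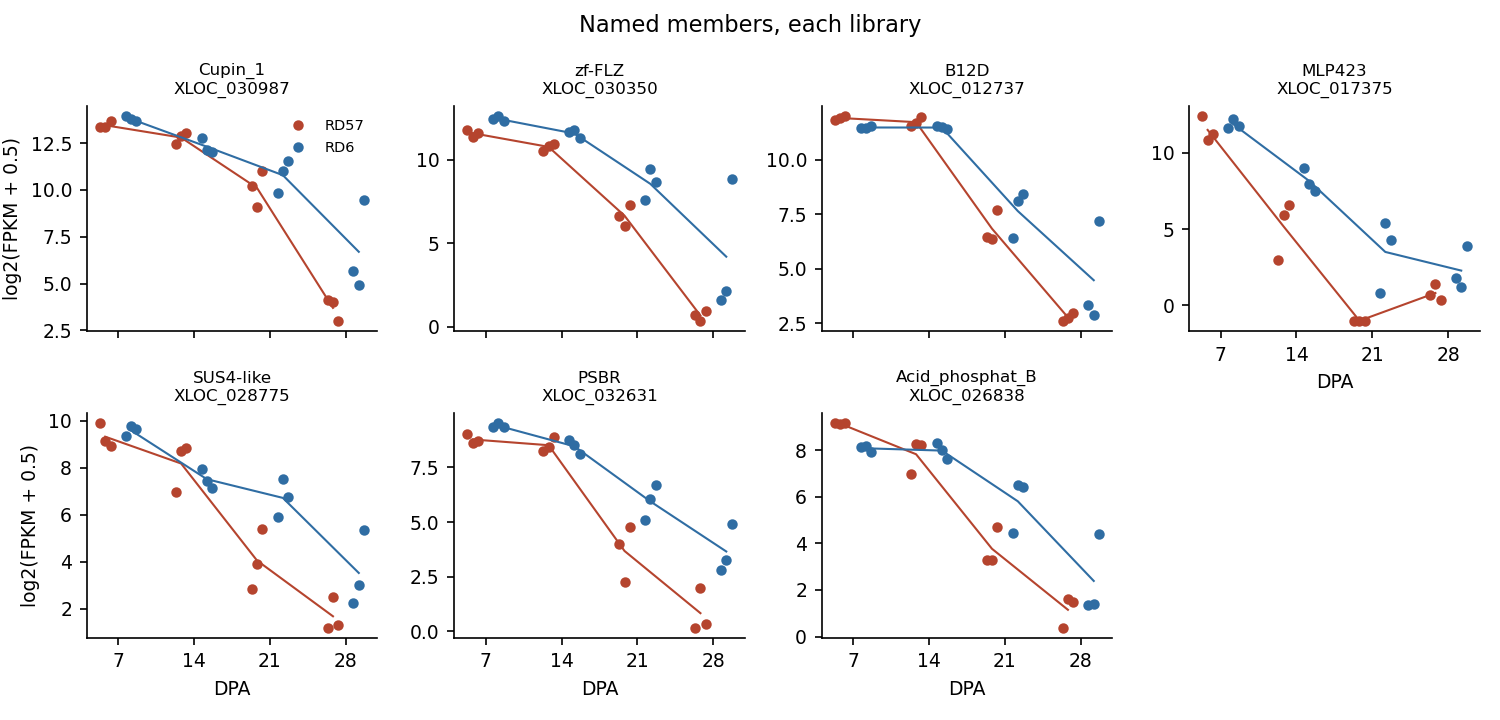
Log2(FPKM + 0.5) in each library (points) by DPA for the 7 named genes, with lines joining the means of the log2 values of RD57 (red) and RD6 (blue), each panel on its own vertical scale. All 7 genes are lower in every library of 28 DPA than in any of 7 DPA, and RD6 replicate 3 stands above the other 28 DPA libraries in each panel.

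A single library, RD6 7 DPA replicate 2, carried the RD6 7 DPA mean of 5 members past 500 FPKM. They were XLOC_000109, XLOC_020060, XLOC_000514, XLOC_020061 and XLOC_005748, named after their values were seen. XLOC_000109 measured 101, 3422 and 152 FPKM in RD6 at 7 DPA, XLOC_020060 29.8, 1995 and 56.6 FPKM, XLOC_000514 59.8, 1453 and 56.7 FPKM, XLOC_020061 51.0, 1448 and 40.3 FPKM, and XLOC_005748 16.8, 1481 and 12.4 FPKM. Replicate 2 was thus 22.5 to 87.9 times the higher of the other 2 replicates. Replicate 2 of RD6 at 14 DPA was also the highest of its group for all 5, with 1301, 572, 359, 339 and 75.4 FPKM in the same order. The RD6 14 DPA mean of XLOC_000109 was 697 FPKM, with a filled value in replicate 3. In RD57 at 7 DPA XLOC_000109 was listed at 0 and the other 4 measured between 12.6 and 88.5 FPKM. XLOC_020060 and XLOC_020061 have consecutive identifiers, and the table does not say whether they are adjacent or share reads.

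**Figure D5:**
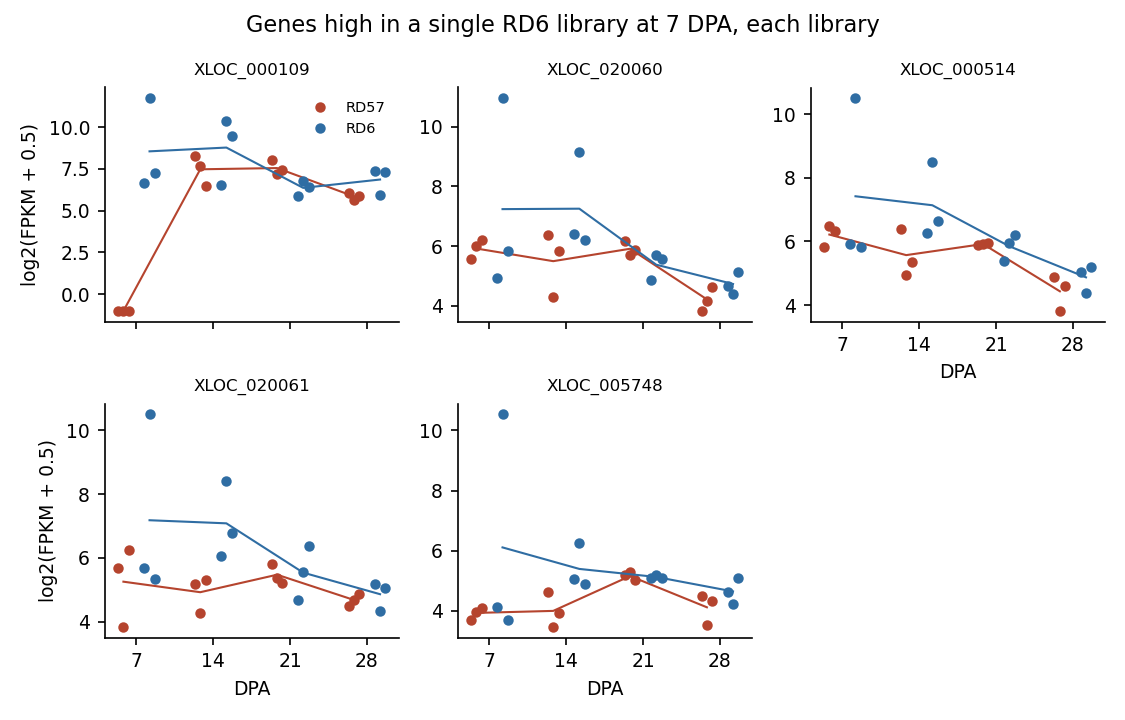
Log2(FPKM + 0.5) in each library (points) by DPA for the 5 genes that were members through RD6 7 DPA replicate 2, with lines joining the means of the log2 values of RD57 (red) and RD6 (blue), each panel on its own vertical scale. In each panel 1 RD6 point at 7 DPA lies apart from its 2 replicates, at 1448 to 3422 FPKM.

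Without RD6 7 DPA replicate 2, 14 of the 150 members no longer qualified, these 5 among them. Leaving out any other library removed between 0 and 6 members. With the median of the 3 libraries in place of the mean, 136 of the 150 qualified. These 5 members made up 1.09% of the summed FPKM of RD6 7 DPA replicate 2 and at most 0.0386% of that of the other 7 DPA libraries, and without them the member share of that library was 22.1%.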

How the data were processed

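The authors trimmed and filtered the reads, removed rRNA reads, aligned the rest to the indica genome with HISAT2, assembled transcripts with Cufflinks and merged them over the 24 samples. The deposited FPKM values were normalised by the authors with Cuffnorm and summed per gene. Values under a floor were set to 0 (lowest value above 0 was 0.500 FPKM), a gene had to be detected in 2 or more replicates, and missing replicates were filled with the mean of the others, which narrows the spread and lowers p-values. Versions are not given in the sources used here.

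Here log2(FPKM + 0.5) was fitted in limma 3.58.1 (R 4.3.3) with a mean for each of the 8 groups over all 24 libraries, a trended prior and two-sided tests. The authors tested with edgeR, which needs counts, and the deposited values are FPKM. P-values were adjusted by Benjamini-Hochberg over 26362 genes, and an adjusted p of at most 0.05 passed. Adding 0.5 understates changes of low values. An exact permutation of 3 against 3 libraries cannot go below p = 0.1. The fit was tested on simulated data.

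The members and the tests were chosen with earlier results of these data known, and the members by their 7 DPA level. Changes from 7 DPA within a cultivar are described without a test, and cultivar differences that involve 7 DPA are not independent of that choice. Named were the 2 members of the highest mean, for each cultivar comparison up to 2 members per direction with the largest difference and no overlap, for each later step the largest change shared by the cultivars, for each difference of change the smallest adjusted p per direction, and members with a read label. Others are said to be named after their values were seen. None of the identifiers matched the rice gene table at hand, so no sequence or position is given. Alternatives were other pseudocounts, scalings, filters, thresholds and sample sets, each library left out in turn, and a replicate block. Python 3.11.15, pandas 2.3.3 and matplotlib 3.10.9 were used.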

Additional observations from a re-analysis of the deposited data

Results flagged for a closer look

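The change between consecutive stages differed between RD57 and RD6 by the limma test of that difference for 17 members from 7 to 14 DPA, for 24 from 14 to 21 DPA and for 12 from 21 to 28 DPA. The first of these steps holds the 7 DPA level by which members were chosen, so its values are a description. Of the 17, 24 and 12 members, 4, 7 and 12 were listed at 0 throughout 1 or more of the groups compared.

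The members with the smallest adjusted p in each direction were these. From 7 to 14 DPA, XLOC_013327 had a difference of 15.30 on the log2 scale, which became 13.36 with a pseudocount of 1 and 19.89 with 0.1, since RD57 at 7 DPA and RD6 at 14 DPA were listed at 0. For XLOC_040685 the difference of the same step was -2.62. From 14 to 21 DPA, XLOC_039747 had a difference of 1.64. XLOC_040314 had -13.22 at that step, with RD6 listed at 0 at both stages and RD57 at 21 DPA. From 21 to 28 DPA, XLOC_000125 had 9.09, with RD57 listed at 0 at both stages and RD6 at 28 DPA. The values of members listed at 0 depend on the pseudocount and are no bounds of a fold change.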

How the results depend on the processing

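Counts of members passing are given for the changed setting beside the main value. When only genes above 0 in all 24 libraries were tested, 130 members remained, and the counts were 10 (main 23) for RD57 over RD6 at 7 DPA, 12 (24) at 14 DPA, 8 (23) at 21 DPA, 17 (29) from 21 to 28 DPA in RD57, 7 (17) for the cultivar difference in the 7 to 14 DPA change, 7 (24) for 14 to 21 DPA and 0 (12) for 21 to 28 DPA, where limma gave 10 members at an unadjusted p under 0.05, 6 more upward in RD57 and 4 in RD6. At 28 DPA the same filter gave 12 (16), 2 higher in RD57 and 10 in RD6. The 20 members left out there are those with a group at 0. With an absolute Log2FC of at least 2 in addition they were 9, 7, 13 and 8 at 7, 14, 21 and 28 DPA, 47 and 41 from 14 to 21 DPA in RD57 and RD6, 32 from 21 to 28 DPA in RD6, and 9 and 12 for the first and second difference of change. Quantile normalization gave 38 at 7 DPA (6 higher in RD57, 32 in RD6), 6 and 16 at 28 DPA (main 6 and 10), 6 rises and 27 falls from 21 to 28 DPA in RD57 (main 2 and 27), 22 and 45 in RD6 (main 6 and 47), and 12 and 2 for the last difference of change (main 12 and 0). A fit to the libraries compared alone gave 7 at 28 DPA and 21 from 21 to 28 DPA in RD6. The cause of these changes was not tested except where fewer genes or libraries entered.

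Leaving out 1 library gave 19 to 37 at 7 DPA, 16 to 30 at 14 DPA, 17 to 31 at 21 DPA, 10 to 20 at 28 DPA, 99 to 109 and 97 to 109 from 14 to 21 DPA in RD57 and RD6, 23 to 29 and 39 to 61 from 21 to 28 DPA, and 12 to 20, 18 to 32 and 8 to 14 for the 3 differences of change. Named members kept their direction in every setting but 4, all at 14 DPA and not past the threshold. XLOC_032631, 0.05 with all libraries, ranged from -0.13 (without RD57 replicate 3; -0.12 without RD6 replicate 3) to 0.19, and XLOC_026838, -0.16 with all libraries, from -0.38 to 0.26 (without RD57 replicate 1; 0.0001 without RD6 replicate 1). Apart from libraries left out, 20 of 358 values of named members fell short of the threshold they had passed, 14 of them in the fit to the libraries compared alone, and 2 newly passed. The number of genes meeting the rule for members was 152, 326 at a minimum of 250 FPKM, 55 at 1000 FPKM, and 141 to 158 without 1 library.

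The replicate numbers did not pair the samples, as the deviations of RD57 and RD6 libraries of the same number correlated between -0.30 and 0.24, and 4 of 12 matched best with their own number. A replicate block gave 22, 24, 23 and 16 members at 7, 14, 21 and 28 DPA and changed no call of a named member. Depth is unknown, so a value listed at 0 shows only that it was under the authors' floor.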
